A study of Hipposideros armiger and Mus musculus with 20 samples.

Results

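The collagen genes of mouse and bat fat were described by depot and by temperature. A collagen chain was taken as a gene whose mouse symbol has the form Col, a type number, the letter a and a chain number, with at least 1 FPKM (the read fragments on a gene divided by its length and by the library's size) in at least 2 libraries of the species. The deposited table held 39 such genes among 14871, of which 27 passed in the mouse and 20 in the bat, with 19 passing in both. In the mouse the chains nearest to the limit were Col28a1 inside it, with a second-highest library at 1.17 FPKM, and Col7a1 outside it at 0.995 FPKM. In the bat they were Col6a4 inside at 1.71 FPKM and Col23a1 outside at 0.934 FPKM. By structural class, 8 of 11 fibrillar chains passed in the mouse and 7 in the bat, as did 4 and 2 of 6 basement membrane chains, 4 and 4 of 5 microfibrillar chains, and 5 and 3 of 8 fibril-associated chains. Both multiplexins, the short-chain Col8a1 and Col28a1 passed in each species. Of the transmembrane chains, Col17a1 and Col23a1 passed in the mouse and none of the 3 in the bat, while Col7a1, the chain of anchoring fibrils, passed in neither.

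Collagens are proteins of the extracellular matrix whose chains wind around each other in a helix, which requires glycine at the first place of each repeating unit of the sequence. Fibrillar types such as I, III and V form the fibres of connective tissue and are made mainly by fibroblasts. Type IV forms the sheet of the basement membrane around fat cells and vessels, and type VI forms beaded microfibrils beside it. In fat, matrix around the cells changes with expansion, fibrosis and inflammation, and type VI in particular has been studied in obesity.

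The classes differ in the coding sequence of the helix, shown here for the chains on which the depot comparison turns. Stretches of 30 codons are given from the mouse GENCODE M21 transcripts (GRCm38), in lower case with codons for glycine in capitals. Those of Col1a1 (chr11:94939451-94939939, plus strand), Col6a1 (chr10:76719623-76720996, minus strand) and Col6a3 (chr1:90791924-90792445, minus strand) start the longest unbroken run of the chain, and that of Col4a1 (chr8:11244498-11245075, minus strand) spans its first break between long runs. All are coding sequence, read across 3 exons in Col1a1 and 2 in each of the others.
Col1a1: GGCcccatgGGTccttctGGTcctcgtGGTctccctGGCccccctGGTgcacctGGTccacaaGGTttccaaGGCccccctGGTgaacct
Col4a1: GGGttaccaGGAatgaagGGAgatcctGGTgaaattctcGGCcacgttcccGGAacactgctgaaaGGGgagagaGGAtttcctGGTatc
Col6a1: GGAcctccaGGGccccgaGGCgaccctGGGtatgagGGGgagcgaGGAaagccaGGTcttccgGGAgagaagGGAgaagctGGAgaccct
Col6a3: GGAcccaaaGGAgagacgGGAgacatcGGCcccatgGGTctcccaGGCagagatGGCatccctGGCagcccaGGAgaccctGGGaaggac
In Col1a1 a glycine codon opened each unit of the stretch, 10 in 30 codons, and the run went on for 338 units. In the Col4a1 stretch, with 9 glycine codons, the spacing is lost in the middle and resumes. Over the longest coding transcript of each gene, the 11 fibrillar chains had a longest unbroken run of 216 to 344 units, against 39 to 66 in the 6 type IV chains, whose helix fell into 23 to 27 runs. Type VI chains had short helices, with 109 units in Col6a1 and 110 in Col6a3, each in 3 runs, although Col6a3 codes for 2677 residues and Col6a1 for 1025. The longest of these runs had 87 units in Col6a1 and 45 in Col6a3. Col4a1 and Col4a2 start 21 bases apart on opposite strands of chromosome 8, and Col6a1 and Col6a2 lie on the same strand of chromosome 10, while Col6a3 is on chromosome 1.

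The libraries came from fat of ICR mice, an outbred stock, and of the great roundleaf bat Hipposideros armiger, labelled as wild type, all held at 10 °C or 30 °C for 7 days. Mouse groups were interscapular brown fat (iBAT) at 10 °C and 30 °C and subcutaneous white fat (sWAT) at 10 °C and 30 °C, and bat groups were iBAT, abdominal white fat (aWAT) and sWAT, each at 10 °C and 30 °C. Each of the 10 groups held 1 female and 1 male library, so that the spread within a group also holds the difference between the sexes. The labels give neither ages nor animal identities, so libraries of different depots may share an animal, and p-values measure the spread between these libraries. No gene was altered and no drug was given in any group.

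Ucp1, which marks thermogenic fat, had 3688 and 5119 FPKM in mouse iBAT at 10 °C (female and male here and in all pairs below) and 192 and 49.95 FPKM at 30 °C. It had 1229 and 2977 FPKM in cold mouse sWAT and 7184 and 2939 FPKM in cold bat aWAT, but at most 3.18 FPKM in these depots when warm and at most 1.20 FPKM in bat sWAT at either temperature. Bat iBAT held 2670 to 10400 FPKM. Summed FPKM was 263338 to 305098 in mouse and 294103 to 358510 in bat libraries. Depth relative to 1 library of the same species, estimated from the steps between low values, was lowest in bat iBAT, at 0.624 to 0.738. Total reads are not known, so no counting error is given. The bat values are deposited under mouse gene identifiers, so levels are compared within a species only, apart from differences in the cold change.

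Changes below are log2 changes of FPKM + 1, less the median change of all genes in the same comparison, with the standard error of limma's fit, and they understate the change of low chains. Chains are called where limma's p-value, adjusted by Benjamini and Hochberg over all genes tested, is under 0.05, and the calls are those of the unshifted change. The median of all genes was -0.57 and -0.47 between mouse depots (warm and cold), -0.30 in cold mouse iBAT, -0.37 in cold mouse sWAT, and between -0.26 and 0.17 in the bat comparisons, differences in cold change included. It was -0.05 for the mouse difference in cold change, and -0.21 in iBAT and -0.42 in sWAT for the differences between the species.

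Summed collagen was lower in every iBAT library than in every sWAT library of the same species. Summed over all 39 chains, mouse iBAT held 262 and 250 FPKM at 10 °C and 440 and 295 FPKM at 30 °C, against 1020 and 1304 FPKM in sWAT at 10 °C and 906 and 842 FPKM at 30 °C. Bat iBAT held 341 and 353 FPKM at 10 °C and 259 and 298 FPKM at 30 °C, bat aWAT 352 and 536 FPKM at 10 °C and 524 and 718 FPKM at 30 °C, and bat sWAT 1219 and 1425 FPKM at 10 °C and 879 and 1363 FPKM at 30 °C. These sums are descriptions without a test, and in bulk tissue fewer cells of a type and less RNA per cell cannot be told apart.

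**Figure D1:**
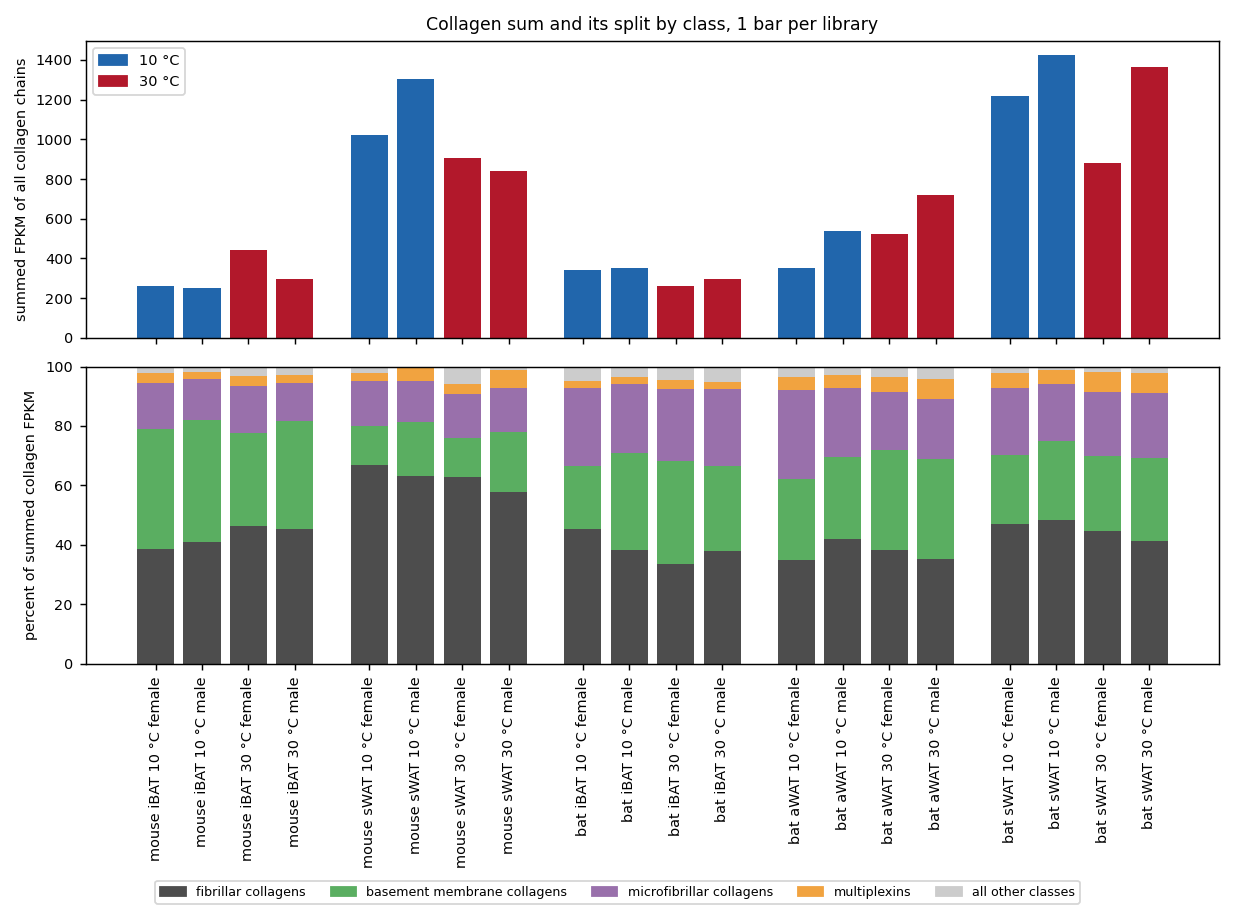
Each bar is 1 library. The upper panel gives the summed FPKM of the 39 collagen chains and the lower panel the percentage of that sum in each structural class. The 4 mouse sWAT libraries stand at 842 to 1304 FPKM and the 4 mouse iBAT libraries at 250 to 440 FPKM, and fibrillar chains take 57.9% to 66.9% of the sum in mouse sWAT and 38.6% to 46.4% in mouse iBAT.

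Fibrillar chains made up 38.6% to 46.4% of the collagen sum in mouse iBAT and 57.9% to 66.9% in mouse sWAT, without overlap. The type IV chains of the basement membrane took 31.1% to 40.9% in mouse iBAT and 13.0% to 20.1% in mouse sWAT. In the bat the split was closer, with fibrillar chains at 33.6% to 45.2% in iBAT, 34.7% to 42.1% in aWAT and 41.4% to 48.3% in sWAT. Col3a1 was the most abundant chain in all 4 mouse sWAT libraries, while Col4a1 led in 3 of the 4 mouse iBAT libraries. In the bat, Col3a1 led in 3 of the 4 sWAT libraries, and Col6a3, Col4a1 or Col4a2 led in all iBAT and aWAT libraries.

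In mice most of the 8 fibrillar chains were lower in iBAT than in sWAT, 6 lower and 0 higher at 10 °C, and 5 lower and 1 higher, Col27a1, at 30 °C. At 10 °C, 0 of 27 chains were called higher and 11 lower in iBAT, against 2.3% of all genes higher and 27.4% lower. At 30 °C, 1 chain was higher and 11 were lower, against 10.7% of all genes higher and 48% lower, so the share of chains called lower in warm mice was below that of all genes. The median chain stood at -0.51 at 10 °C and -0.61 at 30 °C beside the median of all genes. With median-ratio scaling the counts were 0 higher and 9 lower at 10 °C, and 1 higher and 6 lower at 30 °C, with all genes split into 1281 higher and 1015 lower at 10 °C (246 and 2925 without it) and 2422 higher and 2294 lower at 30 °C (1141 and 5128 without it).

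Col1a1 and Col1a2, the chains of type I collagen, were lower in iBAT than in sWAT at both temperatures. Col1a1 had 9.20 and 8.64 FPKM in mouse iBAT at 10 °C against 88.4 and 76.5 FPKM in sWAT, and 17.1 and 13.3 FPKM in iBAT at 30 °C against 82.1 and 53.1 FPKM in sWAT. Col1a2 had 18.2 and 16.9 FPKM in iBAT at 10 °C against 166 and 166 FPKM in sWAT, and 37.4 and 31.7 FPKM in iBAT at 30 °C against 147 and 124 FPKM in sWAT. The depots did not overlap for either chain at either temperature. The change of Col1a1 was -2.60 ± 0.24 at 10 °C (adjusted p = 0.00144, limma) and -1.49 ± 0.24 at 30 °C (adjusted p = 0.00194), and that of Col1a2 was -2.71 ± 0.16 (adjusted p = 0.00093) and -1.37 ± 0.16 (adjusted p = 0.00127). Col3a1, whose homotrimers form type III fibres often mixed with type I, had 47.4 and 42.2 FPKM in iBAT at 10 °C against 339 and 446 FPKM in sWAT, and 86.0 and 50.7 FPKM in iBAT at 30 °C against 265 and 216 FPKM in sWAT. Its change was -2.63 ± 0.28 at 10 °C (adjusted p = 0.00201) and -1.27 ± 0.28 at 30 °C (adjusted p = 0.00325).

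Type V collagen sits inside type I fibrils and governs how they start and how thick they grow. Col5a1 had 2.42 and 2.49 FPKM in mouse iBAT at 10 °C against 18.2 and 22.7 FPKM in sWAT, and 5.36 and 4.10 FPKM in iBAT at 30 °C against 14.6 and 17.4 FPKM in sWAT. Col5a2 differed less, with 11.7 and 11.3 FPKM in iBAT at 10 °C against 31.1 and 36.0 FPKM in sWAT, and 17.7 and 12.2 FPKM in iBAT at 30 °C against 31.3 and 31.3 FPKM in sWAT. Both were lower in iBAT at both temperatures, Col5a1 by -2.16 ± 0.19 and -0.999 ± 0.19 at 10 °C and 30 °C and Col5a2 by -1.001 ± 0.20 and -0.47 ± 0.20 (all adjusted p at most 0.00644), although with median-ratio scaling Col5a2 lost its call at 30 °C. The call of Col5a2 at 10 °C was lost without either iBAT library. Col5a3, a chain of type V with a narrower range of tissues, had 6.35 and 13.0 FPKM in iBAT at 10 °C against 33.9 and 72.9 FPKM in sWAT, a change of -1.86 ± 0.48 (adjusted p = 0.0199). Its call was lost with median-ratio scaling, quantile normalization or only the groups compared, and without either iBAT library. At 30 °C its change of -0.61 ± 0.48 did not pass (adjusted p = 0.0735).

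The type IV chains of mice did not pass in either comparison. Col4a1 had 60.6 and 59.5 FPKM in iBAT at 10 °C against 72.4 and 136 FPKM in sWAT, and 77.7 and 58.6 FPKM in iBAT at 30 °C against 67.3 and 107 FPKM in sWAT. Col4a2, its partner in the trimer, had 44.8 and 42.6 FPKM in iBAT at 10 °C against 54.6 and 96.2 FPKM in sWAT, and 57.6 and 46.8 FPKM in iBAT at 30 °C against 39.7 and 61.5 FPKM in sWAT. The depots overlapped at 30 °C for both chains and did not overlap at 10 °C. The change of Col4a1 was -0.25 ± 0.35 at 10 °C (adjusted p = 0.153) and 0.25 ± 0.35 at 30 °C (adjusted p = 0.447), and that of Col4a2 was -0.25 ± 0.32 (adjusted p = 0.124) and 0.64 ± 0.32 (adjusted p = 0.86). The ratio of Col3a1 to Col4a1 was 0.709 to 1.11 in mouse iBAT and 2.03 to 4.68 in mouse sWAT, a ratio picked after the values were seen.

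Type VI collagen is built of Col6a1, Col6a2 and a longer chain, mostly Col6a3, whose cleaved end is the signalling peptide endotrophin. Mouse Col6a1 had 18.3 and 16.4 FPKM in iBAT at 10 °C against 71.6 and 78.5 FPKM in sWAT, and 33.8 and 19.7 FPKM in iBAT at 30 °C against 64.7 and 64.6 FPKM in sWAT. Col6a2 had 15.3 and 13.0 FPKM in iBAT at 10 °C against 54.6 and 70.0 FPKM in sWAT, and 24.3 and 12.6 FPKM in iBAT at 30 °C against 40.8 and 36.7 FPKM in sWAT. Col6a3 had 7.01 and 4.95 FPKM in iBAT at 10 °C against 25.9 and 32.8 FPKM in sWAT, and 11.6 and 5.66 FPKM in iBAT at 30 °C against 21.8 and 19.0 FPKM in sWAT. All 3 chains were lower in iBAT without overlap, by -1.58 ± 0.25, -1.59 ± 0.30 and -1.66 ± 0.33 at 10 °C in the order named (adjusted p at most 0.00886). At 30 °C they stood at -0.72 ± 0.25, -0.52 ± 0.30 and -0.65 ± 0.33 (adjusted p 0.00621, 0.0211 and 0.019), and with median-ratio scaling none of the 3 kept its call.

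Multiplexins carry broken helices and stand at basement membranes. Col15a1 had 6.66 and 4.94 FPKM in mouse iBAT at 10 °C against 18.2 and 46.3 FPKM in sWAT, and 11.8 and 5.52 FPKM in iBAT at 30 °C against 19.3 and 32.3 FPKM in sWAT. Col18a1, the source of endostatin, had 1.60 and 1.17 FPKM in iBAT at 10 °C against 8.59 and 9.77 FPKM in sWAT, and 3.26 and 2.22 FPKM in iBAT at 30 °C against 8.98 and 18.1 FPKM in sWAT. Both were lower in iBAT without overlap. Col18a1 changed by -1.63 ± 0.32 at 10 °C (adjusted p = 0.00886) and -1.33 ± 0.32 at 30 °C (adjusted p = 0.00421). Col15a1 changed by -1.70 ± 0.52 (adjusted p = 0.0277) and -0.94 ± 0.52 (adjusted p = 0.0428). Both calls were lost with median-ratio scaling, quantile normalization and sex within temperature as a replicate block. The call at 10 °C was also lost with only the groups compared, and the call at 30 °C was kept in only 2 of 9 settings. Over settings and single libraries left out, the change lay between -2.48 and -0.94 at 10 °C and between -1.38 and -0.50 at 30 °C. The call of Col18a1 at 10 °C was lost with quantile normalization and without either iBAT library.

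The remaining calls between mouse depots were Col27a1 and Col6a4 at 30 °C. Col27a1, a fibrillar chain known from cartilage, had 25.03 and 7.65 FPKM in warm iBAT and 2.91 and 1.81 FPKM in warm sWAT, a change of 2.75 ± 0.56 (adjusted p = 0.0168). The female iBAT library stood far above the male one, and without it, or without the male sWAT library, the call was lost and 0 chains were higher. Col6a4, an alternative long chain of type VI, had 0.0146 and 0.0758 FPKM in warm iBAT and 7.49 and 4.76 FPKM in warm sWAT, a change of -2.17 ± 0.52 (adjusted p = 0.00564). It reached 1 FPKM in 3 mouse libraries, all of them sWAT, so it was tested only through the depot where it is high. The call of Col6a4 is counted with the others here but supports nothing further. Without single libraries the count at 30 °C ran from 8 lower, without the male iBAT or the female sWAT library, to 15 lower, without the male sWAT library. At 10 °C it ran from 5 lower, without the male iBAT library, to 15 lower, without the male sWAT library. Col1a1, Col1a2, Col3a1 and Col5a1 kept their calls at both temperatures under every setting tried and without each library in turn. Of the 11 calls at 10 °C, 5 did so, and of the 12 at 30 °C, 6 did.

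**Figure D2:**
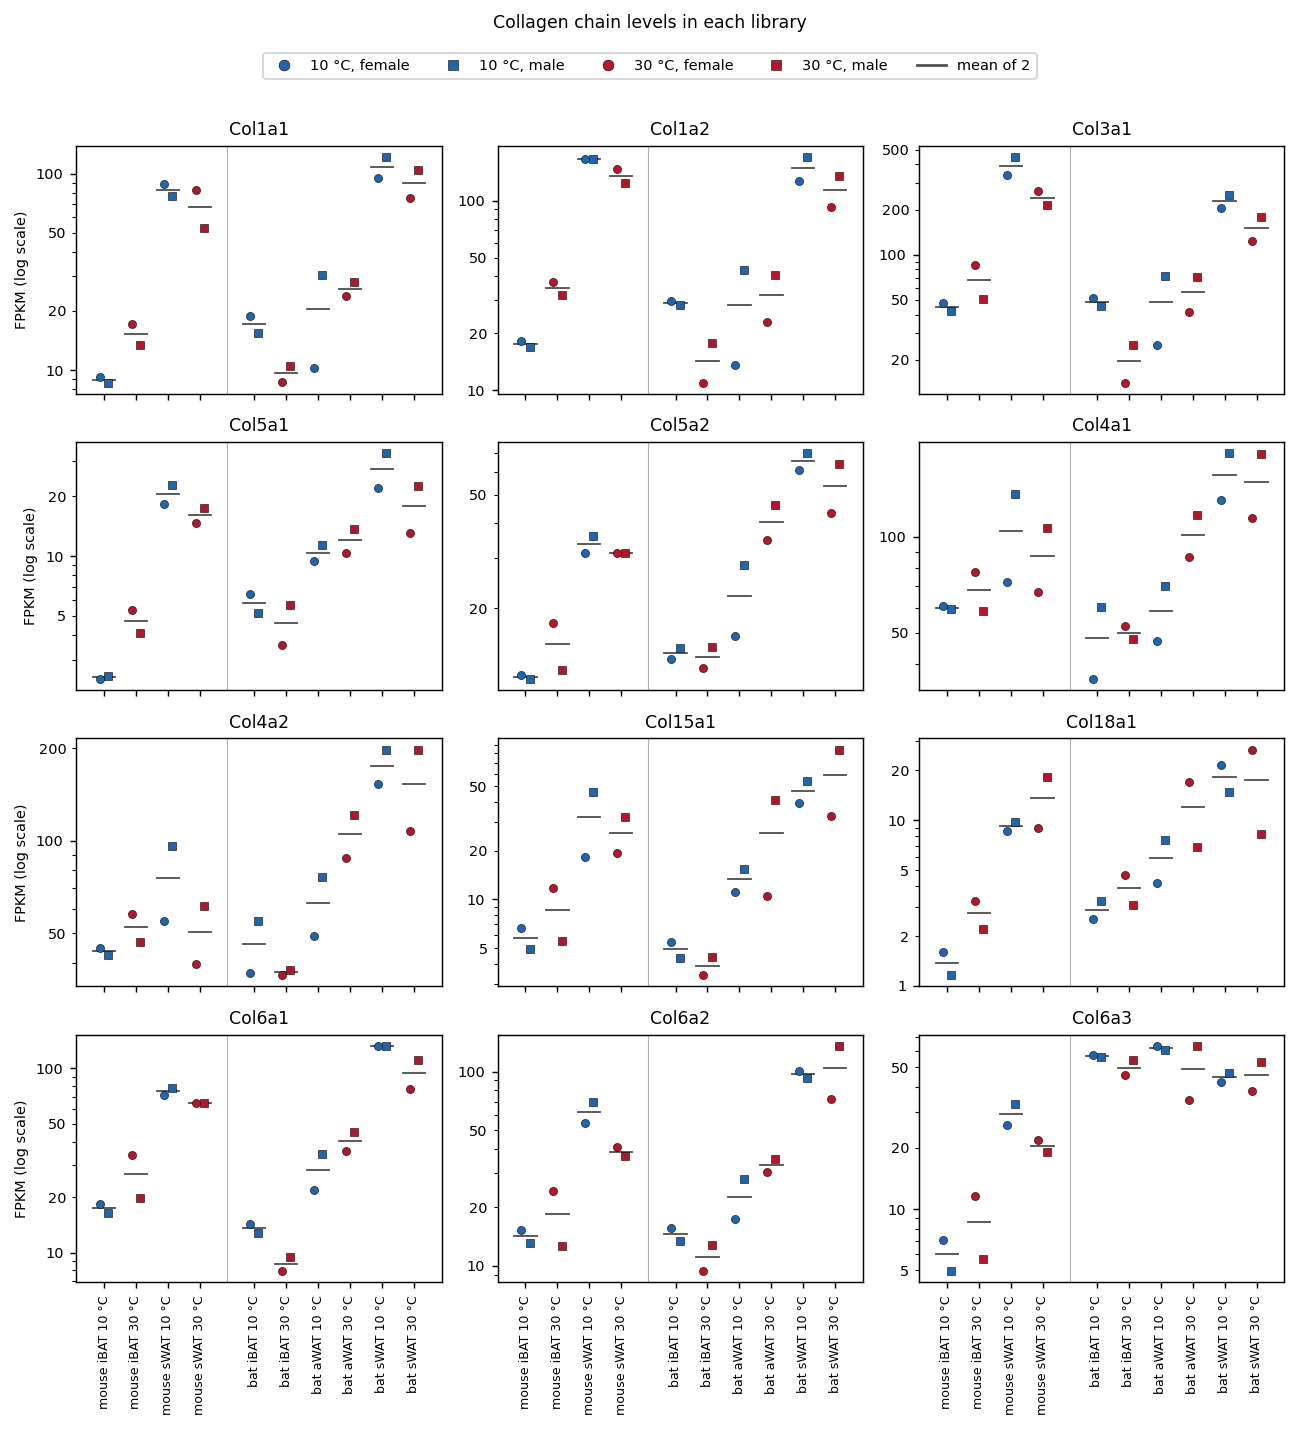
Each point is 1 library, with FPKM on a log scale, circles for females and squares for males, blue for 10 °C and red for 30 °C, and lines at the mean of 2. Col1a1 in mouse iBAT lies at 8.64 to 17.1 FPKM, below the 53.1 to 88.4 FPKM of mouse sWAT, while bat Col6a3 lies between 34.6 and 63.7 FPKM in every depot.

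In bats more classes differed between iBAT and sWAT, type IV included. At 10 °C, 0 of 20 chains were called higher and 13 lower in iBAT, against 13% of all genes higher and 26.7% lower. At 30 °C, 0 chains were higher and 12 lower, against 10.9% of all genes higher and 12.9% lower. The median chain stood at -1.55 at both temperatures. With median-ratio scaling 12 chains were lower at each temperature, with all genes at 10 °C split into 2058 higher and 2001 lower (1432 and 2940 without it).

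Bat Col1a1 had 18.9 and 15.5 FPKM in iBAT at 10 °C against 94.5 and 121 FPKM in sWAT, and 8.70 and 10.5 FPKM in iBAT at 30 °C against 75.3 and 104 FPKM in sWAT. Col1a2 had 29.4 and 28.1 FPKM in iBAT at 10 °C against 127 and 169 FPKM in sWAT, and 11.0 and 17.7 FPKM in iBAT at 30 °C against 92.9 and 134 FPKM in sWAT. Col3a1 had 51.4 and 45.4 FPKM in iBAT at 10 °C against 204 and 252 FPKM in sWAT, and 14.1 and 25.2 FPKM in iBAT at 30 °C against 124 and 178 FPKM in sWAT. No iBAT library reached the lowest sWAT library in any of the 3 chains. Their changes at 10 °C were -2.31 ± 0.40, -2.05 ± 0.47 and -1.95 ± 0.46, and at 30 °C -3.01 ± 0.40, -2.84 ± 0.47 and -2.84 ± 0.46 (adjusted p at most 0.00464). Col5a1 and Col5a2 followed, at -1.78 ± 0.31 and -1.90 ± 0.29 at 10 °C and -1.65 ± 0.31 and -1.83 ± 0.29 at 30 °C (adjusted p at most 0.0034). Col5a1 had 6.47 and 5.18 FPKM in iBAT at 10 °C against 22.0 and 32.8 FPKM in sWAT, and 3.56 and 5.69 FPKM in iBAT at 30 °C against 13.0 and 22.6 FPKM in sWAT, without overlap. Col5a2 had 13.2 and 14.5 FPKM in iBAT at 10 °C against 61.2 and 70.0 FPKM in sWAT, and 12.3 and 14.6 FPKM in iBAT at 30 °C against 43.2 and 64.4 FPKM in sWAT.

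Unlike the mouse pair, both bat type IV chains were called lower in iBAT, although the difference between the species was not tested. Col4a1 had 35.9 and 60.3 FPKM in iBAT at 10 °C against 130 and 183 FPKM in sWAT, and 52.4 and 47.9 FPKM in iBAT at 30 °C against 115 and 182 FPKM in sWAT. Col4a2 had 37.0 and 54.9 FPKM in iBAT at 10 °C against 152 and 197 FPKM in sWAT, and 36.5 and 38.1 FPKM in iBAT at 30 °C against 108 and 198 FPKM in sWAT. The depots did not overlap. Col4a1 changed by -1.45 ± 0.33 at 10 °C (adjusted p = 0.00313) and -1.44 ± 0.33 at 30 °C (adjusted p = 0.00955), and Col4a2 by -1.66 ± 0.34 (adjusted p = 0.00187) and -1.87 ± 0.34 (adjusted p = 0.00295). The multiplexins were lower as well. Col15a1 had 5.46 and 4.34 FPKM in iBAT at 10 °C against 39.4 and 53.8 FPKM in sWAT, and 3.41 and 4.37 FPKM in iBAT at 30 °C against 33.0 and 84.5 FPKM in sWAT, changes of -2.74 ± 0.57 (adjusted p = 0.00264) and -3.40 ± 0.57 (adjusted p = 0.00209). Col18a1 had 2.52 and 3.25 FPKM in iBAT at 10 °C against 21.6 and 14.8 FPKM in sWAT, and 4.67 and 3.10 FPKM in iBAT at 30 °C against 26.7 and 8.24 FPKM in sWAT, changes of -2.03 ± 0.53 (adjusted p = 0.00731) and -1.66 ± 0.53 (adjusted p = 0.0396). The warm call of Col18a1 was lost with a pseudocount of 0.1, without the filter, with only the groups compared, and without the female sWAT library or either iBAT library, its change lying between -2.41 and -0.92. That of Col4a1 at 30 °C was lost without the male sWAT or the male iBAT library.

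The type VI chains of the bat parted from each other. Col6a1 had 14.2 and 12.8 FPKM in iBAT at 10 °C against 131 and 132 FPKM in sWAT, and 7.94 and 9.45 FPKM in iBAT at 30 °C against 76.7 and 110 FPKM in sWAT. Col6a2 had 15.6 and 13.5 FPKM in iBAT at 10 °C against 101 and 92.3 FPKM in sWAT, and 9.39 and 12.8 FPKM in iBAT at 30 °C against 72.4 and 136 FPKM in sWAT. Col6a3 had 57.5 and 56.2 FPKM in iBAT at 10 °C against 42.5 and 46.7 FPKM in sWAT, and 45.6 and 54.0 FPKM in iBAT at 30 °C against 38.3 and 52.9 FPKM in sWAT. Col6a1 and Col6a2 were thus lower in every iBAT library, while Col6a3 overlapped between the depots at 30 °C and was the higher in iBAT at 10 °C. The change of Col6a1 was -2.93 ± 0.25 at 10 °C (adjusted p = 2.76e-05) and -3.20 ± 0.25 at 30 °C (adjusted p = 5.57e-05), and that of Col6a2 was -2.40 ± 0.31 (adjusted p = 0.000201) and -2.99 ± 0.31 (adjusted p = 0.000197). The change of Col6a3 was 0.60 ± 0.27 (adjusted p = 0.341) and 0.21 ± 0.27 (adjusted p = 0.76).

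Read as ratios within a library, Col6a1 per Col6a3 was 0.247 and 0.228 in bat iBAT at 10 °C and 0.174 and 0.175 at 30 °C, 0.345 and 0.563 in bat aWAT at 10 °C and 1.02 and 0.707 at 30 °C, and 3.09 and 2.83 in bat sWAT at 10 °C and 2.00 and 2.09 at 30 °C. The 3 bat depots did not overlap. In the mouse the same ratio was 2.61 to 3.48 in iBAT and 2.39 to 3.40 in sWAT, with overlap. Col6a1 per Col6a2 lay between 0.736 and 1.76 in all 20 libraries. Of the other pairs that share a trimer, Col1a1 per Col1a2 was 0.421 to 0.560 in mouse and 0.553 to 1.03 in bat libraries, and Col4a1 per Col4a2 was 1.25 to 1.735 in mouse and 0.853 to 1.43 in bat libraries. The ratios to Col6a3 were chosen after their values were seen, carry no test, and rest on bat reads assigned to mouse identifiers in a way not given in the sources used here.

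**Figure D3:**
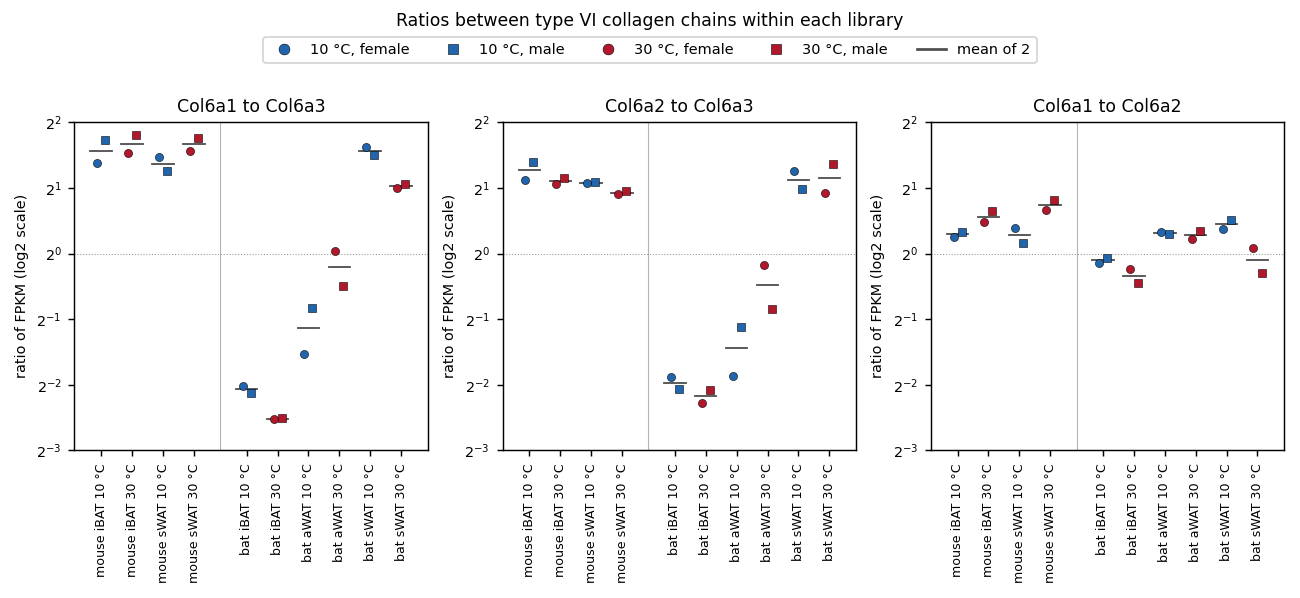
Each point is 1 library, and the vertical axis is the ratio of FPKM of 2 type VI chains on a log2 scale. Col6a1 to Col6a3 runs from 0.174 in bat iBAT to 3.09 in bat sWAT, but only from 2.39 to 3.48 across all mouse libraries, while Col6a1 to Col6a2 stays between 0.736 and 1.76.

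Summed collagen of the bat's abdominal depot lay between those of the other two when warm, and its female library overlapped iBAT when cold. In iBAT against aWAT at 10 °C, 0 of 20 chains were called by limma in either direction (5 at an unadjusted p under 0.05), against 0.2% of all genes higher and 0.707% lower. These percentages, and those below, are at the adjusted p. No share of all genes is given at the unadjusted p, so the counts at that threshold cannot be set against them. At 30 °C, 1 chain was higher and 8 were lower in iBAT, against 7.51% of all genes higher and 12.4% lower. With median-ratio scaling it was 1 higher and 6 lower, with all genes split into 1047 higher and 999 lower (828 and 1363 without it). Between aWAT and sWAT, 0 chains were higher and 10 lower in aWAT at 10 °C, against 10.2% of all genes higher and 11.5% lower. At 30 °C, 0 chains were called in either direction (8 at an unadjusted p under 0.05), against 0.689% of all genes higher and 0.227% lower, and 2 chains, Col6a1 and Col6a2, were lower with median-ratio scaling or quantile normalization. With sex as a replicate block these 2 and Col1a2 were lower (adjusted p 0.0413, 0.0361 and 0.0381), as they were with sex within temperature as the block (0.0343, 0.0259 and 0.0460), an alternative chosen after seeing the data.

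In aWAT, Col1a1 had 10.2 and 30.6 FPKM at 10 °C and 23.7 and 28.1 FPKM at 30 °C, and Col1a2 had 13.6 and 42.8 FPKM at 10 °C and 23.0 and 40.5 FPKM at 30 °C. Col3a1 had 25.1 and 71.7 FPKM at 10 °C and 41.7 and 71.3 FPKM at 30 °C. The female cold library was the lowest of the 4 in each of these chains, and all 4 lay below every sWAT library. Type V chains had 9.39 and 11.4 FPKM (Col5a1) and 15.9 and 28.4 FPKM (Col5a2) at 10 °C, and 10.4 and 13.7 FPKM (Col5a1) and 34.7 and 45.9 FPKM (Col5a2) at 30 °C. Against sWAT at 10 °C, Col1a1 changed by -2.42 ± 0.40 (adjusted p = 0.00223), Col1a2 by -2.45 ± 0.47 (adjusted p = 0.00499), Col3a1 by -2.29 ± 0.46 (adjusted p = 0.00617), Col5a2 by -1.48 ± 0.29 (adjusted p = 0.00459) and Col5a1 by -1.20 ± 0.31 (adjusted p = 0.0154). At 30 °C the same 5 chains stood at -1.82 ± 0.40, -1.92 ± 0.47, -1.51 ± 0.46, -0.48 ± 0.29 and -0.58 ± 0.31, with adjusted p from 0.119 to 0.811.

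At 10 °C Col4a1, Col4a2, Col6a1 and Col6a2 were lower in aWAT than in sWAT, and at 30 °C none of these 4 passed. Col4a1 had 47.0 and 70.1 FPKM in aWAT at 10 °C and 86.5 and 117 FPKM at 30 °C, and Col4a2 had 48.8 and 76.4 FPKM at 10 °C and 88.0 and 121 FPKM at 30 °C. Col6a1 had 21.9 and 34.3 FPKM at 10 °C and 35.4 and 45.0 FPKM at 30 °C, Col6a2 had 17.5 and 28.0 FPKM at 10 °C and 30.5 and 35.6 FPKM at 30 °C, and Col6a3 had 63.5 and 60.8 FPKM at 10 °C and 34.6 and 63.7 FPKM at 30 °C. Against sWAT at 10 °C, Col6a1 changed by -2.12 ± 0.25 (adjusted p = 0.000382), Col6a2 by -1.98 ± 0.31 (adjusted p = 0.00165), Col4a2 by -1.39 ± 0.34 (adjusted p = 0.0127) and Col4a1 by -1.31 ± 0.33 (adjusted p = 0.0147). Col6a3 stood at 0.57 ± 0.27 (adjusted p = 0.248) and Col6a4 at 0.24 ± 0.60 (adjusted p = 0.89). At 30 °C Col6a2 stood at -1.65 ± 0.31 (adjusted p = 0.0581) and Col6a1 at -1.27 ± 0.25 (adjusted p = 0.0808), both without overlap, while Col4a1 at -0.60 ± 0.33 (adjusted p = 0.774) and Col4a2 at -0.58 ± 0.34 (adjusted p = 0.793) overlapped between the depots. Col15a1 had 11.2 and 15.5 FPKM in aWAT at 10 °C and 10.5 and 41.3 FPKM at 30 °C, and Col18a1 had 4.20 and 7.60 FPKM at 10 °C and 17.1 and 6.89 FPKM at 30 °C.

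Between iBAT and aWAT at 30 °C, the lower chains with the largest change were Col15a1 (-2.03 ± 0.57, adjusted p = 0.0236), Col6a1 (-1.93 ± 0.25, adjusted p = 0.0007), Col5a2 (-1.35 ± 0.29, adjusted p = 0.00662), Col6a2 (-1.35 ± 0.31, adjusted p = 0.00938) and Col3a1 (-1.33 ± 0.46, adjusted p = 0.0493). Col4a2, Col1a1 and Col5a1 also passed, at -1.29, -1.19 and -1.07. The higher chain was Col16a1, a fibril-associated collagen, with 5.68 and 6.44 FPKM in warm iBAT against 1.57 and 2.63 FPKM in warm aWAT, a change of 1.36 ± 0.24 (adjusted p = 0.00809). These calls were fragile: without single libraries the count was 2 lower and 1 higher without the female iBAT library, 3 lower and 1 higher without the male aWAT library, and 5 lower and 0 higher without either of the others, and Col5a2 and Col6a1 alone among the 9 kept their call under every setting and without each library. Between aWAT and sWAT at 10 °C the count ran from 5 lower, without the male sWAT library, to 10 lower, without the male aWAT library, and 5 of the 10 calls kept it under every setting and without each library. Of the 13 calls between iBAT and sWAT at 10 °C, 10 kept it under every setting and without each library, and of the 12 at 30 °C, 9 did.

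Smaller bat chains completed the depot calls. Col8a1, a short-chain collagen of vessels, had 0.642 and 0.615 FPKM in cold iBAT against 2.05 and 2.65 FPKM in cold sWAT (-0.77 ± 0.32, adjusted p = 0.0275), a call lost without any 1 of the 4 libraries. Col5a3 had 31.3 and 23.8 FPKM in cold iBAT against 57.5 and 39.5 FPKM in cold sWAT (-0.52 ± 0.24, adjusted p = 0.0265). It lost its call with median-ratio scaling, with only the groups compared, and without the female sWAT or the male iBAT library. Col22a1, a fibril-associated chain found at tissue junctions, had 0.172 and 1.85 FPKM in warm iBAT against 3.08 and 4.26 FPKM in warm sWAT (-1.27 ± 0.39, adjusted p = 0.0328). That call was lost with a pseudocount of 0.1, without the filter, with quantile normalization and with only the groups compared. It was also lost without either sWAT library and without the female iBAT library. Col16a1 had 4.40 and 3.32 FPKM in cold aWAT against 7.87 and 7.41 FPKM in cold sWAT (-0.74 ± 0.24, adjusted p = 0.0351), a call lost without any 1 of the 4 libraries.

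Few chains were called between 10 °C and 30 °C within a depot. With 2 libraries in a group, a chain without a call may still differ. In mouse iBAT, 0 of 27 chains were higher and 2 lower at 10 °C than at 30 °C, against 2.63% of all genes higher and 10.2% lower. With median-ratio scaling 0 chains were higher and 1 lower, with all genes split into 626 higher and 356 lower (281 and 1088 without it). Col1a2 had 18.2 and 16.9 FPKM at 10 °C against 37.4 and 31.7 FPKM at 30 °C, a change of -0.64 ± 0.16 (adjusted p = 0.0222), and Col23a1, a transmembrane collagen, had 0.258 and 0.228 FPKM against 1.04 and 0.894 FPKM, a change of -0.36 ± 0.15 (adjusted p = 0.0418). The temperatures did not overlap, but both calls were lost without any 1 of the 4 libraries and with quantile normalization. At an unadjusted p under 0.05 stood 5 chains, a count given without the share of all genes at that threshold. Col1a1 (-0.40 ± 0.24, adjusted p = 0.0996) and Col5a1 (-0.43 ± 0.19, adjusted p = 0.0539) did not pass. The largest difference was that of Col27a1, at -0.999 ± 0.56 (adjusted p = 0.163), and Col28a1 stood at -0.53 ± 0.24 (adjusted p = 0.0671). With sex as a replicate block Col1a1 (adjusted p = 0.0467) and Col28a1 (adjusted p = 0.0419) also passed, 4 chains in all. Col5a1 passed with a pseudocount of 0.1 (adjusted p = 0.0462), only the groups compared (0.0356), or a mean-variance trend in limma (0.0472). Col28a1 passed with that pseudocount and with only the groups compared too, and Col1a1 with the latter. The other chains plotted by library (types III, IV, VI, XV and XVIII and Col5a2) lay between -0.35 and 0.13. Of the 27 chains, 21 lay below the median change of all genes, with a median of -0.17. Markers of other cells differed between the same libraries. The summed FPKM of 11 fibroblast and progenitor markers was 318 and 277 at 10 °C against 927 and 1175 at 30 °C, with 4 of 11 called lower and none higher. That of 7 Schwann cell and nerve markers was 22.9 and 27.55 against 56.7 and 56.6 (2 of 7 lower), and that of 9 skeletal muscle markers was 29.5 and 644.5 against 1352 and 1146 (0 of 9 called). Their part in the collagen values was not tested.

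Mouse sWAT, where Ucp1 was near 0 when warm, had no fibrillar chain called in the cold. There 0 of 27 chains were called higher and 1 lower, against 6.71% of all genes higher and 26.5% lower, with a median chain at 0.27. Of the 27 chains, 18 lay above the median change of all genes, the 8 fibrillar chains among them. Col3a1 had 339 and 446 FPKM at 10 °C against 265 and 216 FPKM at 30 °C, without overlap, a change of 1.06 ± 0.28 that did not pass (adjusted p = 0.097). Col1a1 stood at 0.68 ± 0.24 (adjusted p = 0.34) and Col1a2 at 0.66 ± 0.16 (adjusted p = 0.189). Col23a1 had a mean of 0.760 FPKM at 10 °C against 1.42 FPKM at 30 °C and did not pass (-0.098 ± 0.15, adjusted p = 0.0582). It was called lower by limma with a pseudocount of 0.1 (adjusted p = 0.0483) and without the filter (adjusted p = 0.0416). With median-ratio scaling the result turned: 3 chains were called higher and 0 lower, namely Col3a1 (1.14 ± 0.28, adjusted p = 0.0428), Col1a1 (0.75 ± 0.19, adjusted p = 0.0459) and Col1a2 (0.74 ± 0.14, adjusted p = 0.0254), with all genes split into 1130 higher and 727 lower (717 and 2828 without it). The single call was Col6a4, with 2.32 and 0.0133 FPKM at 10 °C against 7.49 and 4.76 FPKM at 30 °C, a change of -1.56 ± 0.52 (adjusted p = 0.0341). It was lost with median-ratio scaling, with a smaller pseudocount, without the filter and without either warm library, and the count ran from 0, without the female warm library, to 1 higher and 3 lower, without the female cold library. Col6a4 reached 1 FPKM in 3 of the 8 mouse libraries, all of them sWAT, so it was tested only through the depot where it is high. Lymphocyte markers were high in the same libraries: the summed FPKM of 9 was 226 and 2.79 in mouse sWAT at 10 °C against 624 and 575 at 30 °C, with 4 of 9 called lower in the cold, and 1.64 to 3.60 in mouse iBAT. In the male cold sWAT library, where Col6a4 was near 0, none of the 9 reached 1 FPKM, and skeletal muscle markers summed to 1191 FPKM against 9.75 to 23.1 FPKM in the other mouse sWAT libraries. The part of these cells in the values was not tested.

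No chain was called in the cold in any bat depot. In bat iBAT limma called 0 higher and 0 lower of 20 (3 at an unadjusted p under 0.05), against 1.07% of all genes higher and 0.871% lower. In bat sWAT it was 0 and 0 (2 at an unadjusted p under 0.05), against 1.02% higher and 0.0635% lower, and in bat aWAT 0 and 0 (3 at an unadjusted p under 0.05), against 8.33% higher and 6.49% lower. These percentages are at the adjusted p, and no share of all genes is given beside the unadjusted counts. In iBAT, Col3a1 had 51.4 and 45.4 FPKM at 10 °C against 14.1 and 25.2 FPKM at 30 °C, the largest difference among the 20 chains (1.41 ± 0.46, adjusted p = 0.168), with Col1a2 at 1.09 ± 0.47 (adjusted p = 0.288) and Col1a1 at 0.88 ± 0.40 (adjusted p = 0.319), none with overlap between temperatures. Of the 20 chains, 15 in iBAT and 13 in sWAT lay above the median change of all genes, with medians of 0.33 and 0.17. In aWAT, where Ucp1 was near 0 when warm, 15 of 20 chains lay below the median change of all genes, with a median of -0.33. The nearest to a call there was Col5a2, with 15.9 and 28.4 FPKM at 10 °C against 34.7 and 45.9 FPKM at 30 °C (-0.74 ± 0.29, adjusted p = 0.0696), and it passed with quantile normalization and when the 10 highest genes were left out of the scaling. With sex as a replicate block Col5a2 (adjusted p = 0.0204), Col4a1 (adjusted p = 0.0392) and Col4a2 (adjusted p = 0.0397) were lower there. Fibroblast and progenitor markers summed to 672 and 1387 FPKM in bat aWAT at 10 °C against 1963 and 2177 FPKM at 30 °C, with 1 of 11 called lower, and their part was not tested. With median-ratio scaling 0 chains were called in each of the 3 bat depots, with all genes in iBAT split into 140 higher and 55 lower (118 and 96 without it) and in aWAT into 1047 higher and 460 lower (918 and 716 without it).

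**Figure D4:**
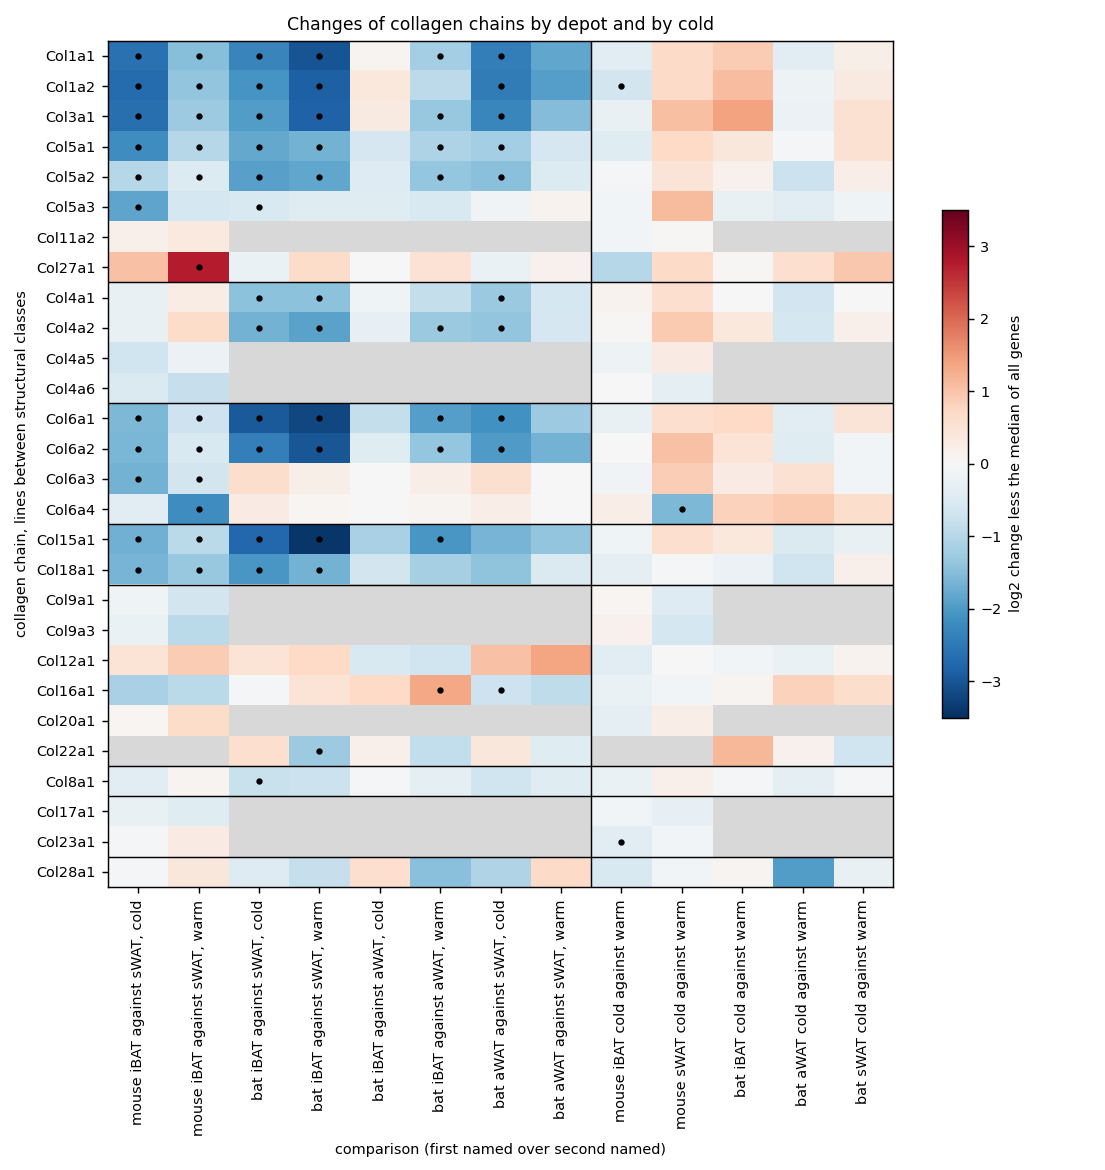
Rows are the 28 chains tested in either species, with lines between structural classes, and columns are the 8 depot and 5 cold comparisons. Colour gives the log2 change less the median of all genes, red where the first-named group is higher, dots mark calls at an adjusted p under 0.05, and grey marks chains not tested in that species. Dots number up to 13 in a depot column and 3 in all 5 cold columns. The columns of cold bat iBAT against aWAT and of warm bat aWAT against sWAT hold no dot.

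The cold change of a chain was also compared between depots and between species. Between mouse sWAT and mouse iBAT, limma called 0 of 27 chains (0.0374% of all genes), although Col1a2 stood at 1.28 ± 0.23 (adjusted p = 0.102) and Col3a1 at 1.30 ± 0.40 (adjusted p = 0.175), higher in sWAT. Between bat aWAT and bat iBAT 0 of 20 chains were called (0.245% of all genes), between bat aWAT and bat sWAT 0 (3.8%), and between bat sWAT and bat iBAT 0 (0.608%). For iBAT of mouse against bat, 0 of 19 chains passed (4.15% of all genes), with Col1a2 at -1.72 ± 0.57 (adjusted p = 0.0745), Col3a1 at -1.66 ± 0.60 (adjusted p = 0.0975) and Col1a1 at -1.27 ± 0.52, and these 3 chains passed when only the 4 groups compared were fitted. For sWAT of mouse against bat, 1 of 19 passed (21.5% of all genes), Col6a4 at -2.21 ± 0.86 (adjusted p = 0.0457), a chain that passed the filter only through the few libraries where it is high and whose call was lost without the filter.

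A group of chains was high in the female mouse sWAT libraries. Col9a1, Col9a2 and Col9a3, the chains of type IX collagen known from cartilage, had 1.37, 0.936 and 2.16 FPKM in the cold female sWAT library and 6.33, 3.41 and 7.93 FPKM in the warm one, and at most 0.60 FPKM in the male sWAT libraries. Col4a6, a type IV chain of epithelial basement membranes, had 2.53 FPKM in the cold and 8.23 FPKM in the warm female library, against 0.156 and 0.183 FPKM in the males. Col17a1, which anchors epithelial cells to the basement membrane, had 1.91 FPKM in the cold and 4.52 FPKM in the warm female library, against 0.187 and 0.574 FPKM in the males, and Col7a1 had 0.995 and 5.15 FPKM against 0.389 and 0.495 FPKM. The females were the higher at both temperatures in all 6 chains, which were picked after their values were seen. Chains outside these 6 did the same. Col16a1 and Col8a1 were highest among mouse libraries in the warm female sWAT library, at 14.3 and 5.91 FPKM. They were next highest in the cold female one, at 6.20 and 3.76 FPKM. The labels put 1 library of each sex in a group, so that sex and library cannot be told apart.

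Beside them, the summed FPKM of 3 epithelial and mammary markers (Cdh1, Epcam and Krt14) was 47.5 in the cold and 98.1 in the warm female mouse sWAT library, against 0.107 and 1.52 in the males and 0.0802 to 4.19 in mouse iBAT. Among 6 cartilage and tendon markers, Sox9, a factor of cartilage and of several epithelia, had 2.93 FPKM in the cold and 5.62 FPKM in the warm female library, against 0.0484 and 0.167 FPKM in the males. Comp, a matrix protein of cartilage and tendon, was closer, at 0.868 and 1.14 FPKM in the females against 0.551 and 1.02 FPKM in the males. The other 4 (Acan, Matn3, Hapln1 and Tnmd) reached at most 0.134 FPKM in any mouse sWAT library. The part of epithelial or cartilage tissue in these values was not tested. Bat libraries held at most 0.0684 FPKM of Col9a1, and 0.773 to 13.5 FPKM of the epithelial markers. Bat Col6a4 was highest in the cold females, with 1.71, 2.13 and 1.63 FPKM in the cold female iBAT, aWAT and sWAT libraries and at most 0.0868 FPKM in the other 9 bat libraries.
The other low chains gave no call. Mouse Col11a2, a fibrillar chain, ran from 0.962 to 3.13 FPKM over the 8 libraries, and the fibril-associated Col12a1 and Col20a1 from 0.585 to 3.05 FPKM and from 0.490 to 2.37 FPKM. Mouse Col4a5 ran from 0.205 to 0.97 FPKM in iBAT and from 0.704 to 3.97 FPKM in sWAT, and did not pass at 10 °C (-0.69 ± 0.50, adjusted p = 0.115) or at 30 °C (-0.22 ± 0.50, adjusted p = 0.208). Bat Col12a1 ran from 0.363 to 5.02 FPKM over the 12 libraries, bat Col27a1 from 0.808 to 5.57 FPKM and bat Col28a1 from 0.951 to 18.1 FPKM, the last with 18.1 FPKM in the male and 4.4996 FPKM in the female warm aWAT library. Col22a1 passed the filter in the bat and reached at most 0.160 FPKM in the mouse.

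**Figure D5:**
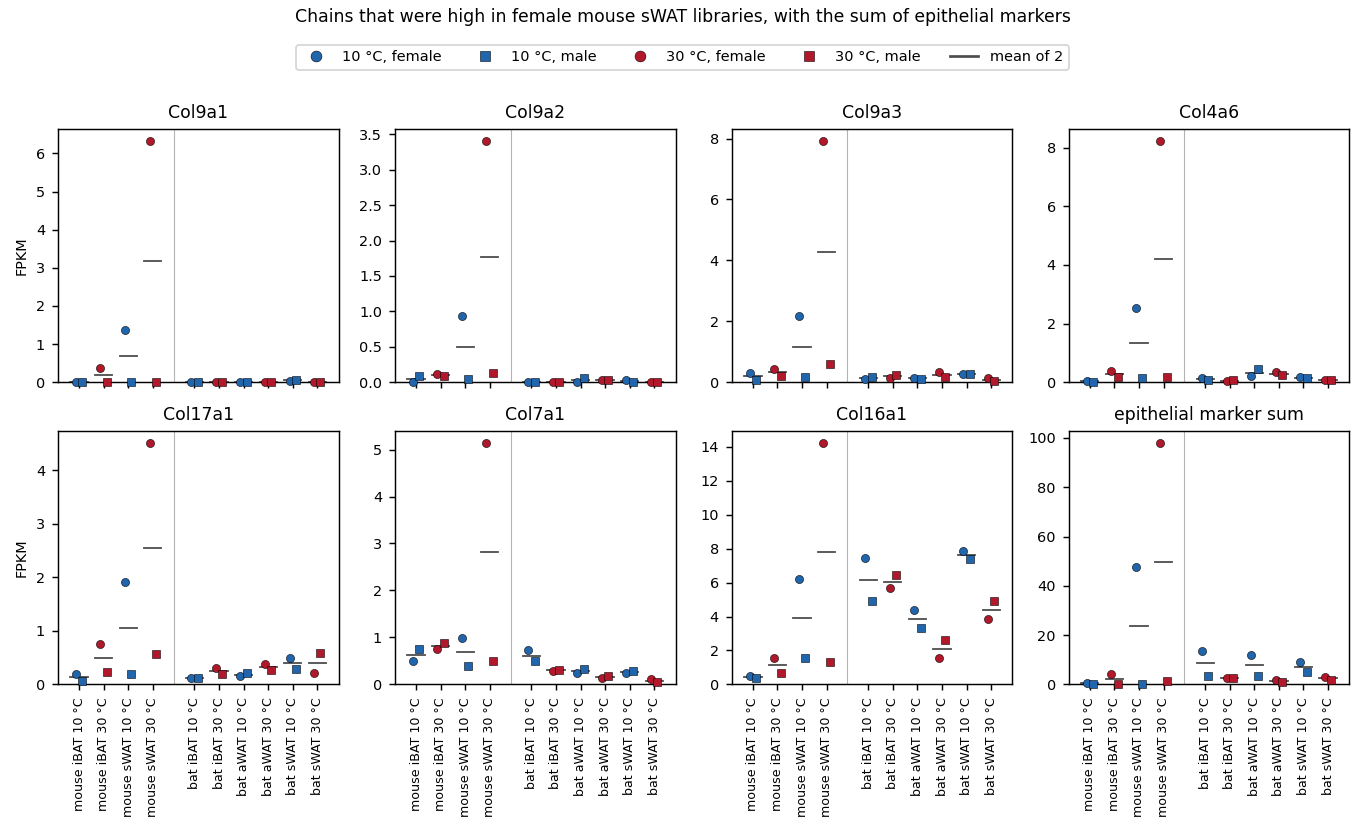
Each point is 1 library, with FPKM on a linear scale and lines at the mean of 2, for 7 chains and for the sum of 3 epithelial markers. The warm and then the cold female mouse sWAT library stand highest among mouse libraries for Col9a1 (6.33 and 1.37 FPKM), Col4a6 (8.23 and 2.53 FPKM) and the marker sum (98.1 and 47.5 FPKM).

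Genes that fold, cut and bind collagen were called lower in iBAT than in sWAT more often than higher. Beside their counts, 27.4% of all genes were lower in mouse iBAT at 10 °C and 48% at 30 °C, and 26.7% and 12.9% in bat iBAT. Of 21 measured genes for procollagen folding and modification, 0 were higher and 15 lower in mouse iBAT than in sWAT at 10 °C, and 1 higher and 12 lower at 30 °C, the last near the share of all genes. In the bat it was 0 higher and 16 lower at 10 °C and 0 higher and 14 lower at 30 °C. Fkbp10, a chaperone of type I procollagen, changed by -1.44 ± 0.21 (adjusted p = 0.00328) in cold mice and by -1.98 ± 0.23 (adjusted p = 8.97e-05) in cold bats. Creb3l1, a factor that switches on type I collagen genes, changed by -1.47 ± 0.17 (adjusted p = 0.00193) and -2.47 ± 0.35 (adjusted p = 0.000334), and P4hb, a subunit of prolyl hydroxylase, by -1.22 ± 0.19 (adjusted p = 0.00342) and -1.45 ± 0.20 (adjusted p = 0.000211). The gene that was higher in warm mouse iBAT was Tmem38b, a potassium channel of the endoplasmic reticulum, at 2.30 ± 0.29 (adjusted p = 0.0041).

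Of 9 measured genes for processing and cross-linking, 9 were lower in mouse iBAT at 10 °C and 8 at 30 °C, and 6 were lower in bat iBAT at each temperature, with none higher. Loxl1, a lysyl oxidase that cross-links fibres, changed by -1.71 ± 0.17 in mice at both temperatures (adjusted p = 0.00145 and 0.00117) and by -1.38 ± 0.17 in cold bats (adjusted p = 0.000117). Pcolce, which speeds the cutting of procollagen, changed by -1.40 ± 0.23 (adjusted p = 0.00503) in cold mice and -1.55 ± 0.31 (adjusted p = 0.00166) in cold bats. Of the fibril-binding proteins, 0 were higher and 13 of 17 lower in mouse iBAT at 10 °C and 14 at 30 °C, and 13 and 10 of 15 in bat iBAT. Dpt and Dcn, which bind and space collagen fibrils, fell by 3.69 and 2.68 on the log2 scale in cold mouse iBAT and by 3.75 and 2.29 in cold bat iBAT, all relative to sWAT. Of 6 measured collagen receptors, 5 were lower in mouse iBAT at 10 °C and 6 at 30 °C, and 5 and 4 in bat iBAT, with none higher. Ddr2, a receptor kinase for fibrillar collagen, changed by -1.47 ± 0.22 (adjusted p = 0.00379) in iBAT relative to sWAT of cold mice, and Mrc2, which takes up collagen fragments, by -1.79 ± 0.26 (adjusted p = 0.000286) in the same comparison of cold bats.

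Basement membrane partners differed between the species in count, a difference not tested. In mouse iBAT 0 of 13 were higher and 8 lower at 10 °C, and 0 and 3 at 30 °C, where the count lay below the 48% of all genes. In bat iBAT 1 of 14 was higher and 10 lower at 10 °C, and 0 and 6 at 30 °C, with Hspg2, the proteoglycan perlecan, at -2.65 ± 0.33 (adjusted p = 0.000155) in the cold. In bat aWAT against sWAT at 10 °C, 0 of the 21 folding genes were higher and 6 lower, 1 of 9 processing genes was higher and 4 lower, and 0 of 14 basement membrane partners were higher and 6 lower. Of all genes in that comparison, 10.2% were higher and 11.5% lower. In the cold itself, mouse iBAT had 4 of 21 folding genes, 2 of 9 processing genes, 5 of 17 fibril-binding genes and 3 of 13 basement membrane partners lower and none higher, with Dcn at -1.47 ± 0.22 (adjusted p = 0.0118), against 10.2% of all genes lower. Mouse sWAT had 1 folding gene and 2 fibril-binding genes lower, against 26.5% of all genes, and 1 processing gene higher, Pcolce at 1.18 ± 0.23 (adjusted p = 0.0399), against 6.71%. Bat sWAT had 1 processing gene higher, Loxl1 at 0.90 ± 0.17 (adjusted p = 0.0283), against 1.02%, and bat iBAT had 1 basement membrane partner lower, Smoc1, against 0.871%. Bat aWAT had 3 of 21 folding genes, 4 of 14 basement membrane partners and 1 of 6 receptors lower and none higher, against 6.49% of all genes lower, with Lamb1, a laminin chain, at -1.27 ± 0.23 (adjusted p = 0.00428).

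Markers of fibroblasts and macrophages were also lower in iBAT than in sWAT, while those of some other cells were uneven. The part of these cells in the results was not tested. The fibroblast list shares Dpt and Mfap5 with the list of fibril-binding proteins, so the counts of these lists are not independent. Summed over 11 fibroblast and progenitor markers, mouse iBAT held 277 to 1175 FPKM and mouse sWAT 2823 to 5259 FPKM, and bat iBAT held 472 to 749 FPKM, bat aWAT 672 to 2177 FPKM and bat sWAT 3745 to 4981 FPKM. Of the 11, 11 were lower in mouse iBAT than in sWAT at each temperature and 9 in bat iBAT, with none higher and no marker listed at 0. Macrophage markers were lower too, 8 of 8 in mouse iBAT at each temperature, and 8 and 6 of 8 in bat iBAT at 10 °C and 30 °C. Of all genes, 27.4% (10 °C) and 48% (30 °C) were lower in mouse iBAT and 26.7% and 12.9% in bat iBAT. Skeletal muscle markers were uneven, with 276 and 629 FPKM in bat sWAT at 10 °C against 2.56 to 22.2 FPKM in all other bat libraries, and with 29.5 to 1352 FPKM in mouse iBAT and 9.75 to 1191 FPKM in mouse sWAT. Of 9 lymphocyte markers, 9 were lower in mouse iBAT than in sWAT at 30 °C and 0 at 10 °C, and bat libraries held 1.67 to 13.4 FPKM of their sum. Mesothelial markers held 43.6 to 122 FPKM in bat aWAT and 0.384 to 14.3 FPKM in the other bat depots.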

How the data were processed

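The deposited table gave FPKM per gene and library, made by the authors and listed under mouse gene identifiers for both species. Total RNA was taken with a kit for fatty tissue, per the labels' protocols, and CASAVA 1.8 appears in the submitters' processing notes. Not stated in any label or header read were the aligner, counter, builds, scaling and matching of bat to mouse genes. Both members and gene lists were chosen with earlier results of these data known.

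A gene was tested in a species where 2 or more of its libraries had 1 FPKM or more (10689 of 14871 in the mouse, 11025 in the bat). log2(FPKM + 1) was fitted by limma 3.58.1 in R 4.3.3, by species, with the groups as the design. The species contrasts used 9400 shared genes in 1 fit. Tests were two-sided with Benjamini-Hochberg adjustment over all tested genes, and the code was checked on simulated data. Values in every library are given for 12 chains (types I, III, IV and VI, Col5a1, Col5a2, Col15a1 and Col18a1) and for up to 5 called chains per direction and comparison, and up to 4 called genes per list and comparison are named, in both cases those with the largest change. Others are said to be chosen after their values were seen. Alternatives were a pseudocount of 0.1, no filter, other scalings, sex as a block, a mean-variance trend in limma, only the groups compared, and leaving out each library.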

Additional observations from a re-analysis of the deposited data

Results flagged for a closer look

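The cold change of Col6a4 differed between mouse and bat sWAT in the test of the difference itself. The difference was -2.206 ± 0.86 on the log2 scale, mouse less bat (limma, adjusted p = 0.0457). Mouse sWAT had 2.32 and 0.0133 FPKM at 10 °C against 7.49 and 4.76 FPKM at 30 °C, and bat sWAT had 1.63 and 0 FPKM at 10 °C against 0 and 0 FPKM at 30 °C. In each cold pair the female library held the higher value. The chain reached 1 FPKM in 3 mouse libraries, all sWAT, and in 3 bat libraries, so it passed the filter only through libraries where it is high, and the call supports nothing further. It was lost with a pseudocount of 0.1, without the filter, with median-ratio scaling, quantile normalization or only the groups compared, and without 6 of the 8 libraries taken singly. The summed FPKM of 9 lymphocyte markers in mouse sWAT was 226 and 2.79 at 10 °C against 624 and 575 at 30 °C, and in bat sWAT 8.18 and 5.13 against 3.94 and 3.76. Their part in the difference was not tested.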

How the results depend on the processing

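Counts of collagen chains called changed as follows. In cold against warm mouse iBAT, 2 chains became 4 with a pseudocount of 0.1, 4 with sex as a replicate block, 5 with only the groups compared, 1 with median-ratio scaling, and 0 with quantile normalization or without any 1 library. In mouse sWAT, 1 lower became 3 higher with median-ratio scaling, 0 with only the groups compared, and 0 to 4 without single libraries. In bat aWAT, 0 became 1 with quantile normalization, 1 when scaled without the 10 highest genes, 3 with sex as a replicate block, and 0 to 2 without single libraries. Between warm mouse depots 12 became 7 with median-ratio scaling and 9 to 15 without single libraries, and between cold ones 11 became 5 to 15. Between warm bat iBAT and aWAT, 9 became 14 with sex within temperature as a replicate block (chosen after seeing the data) and 3 to 5 without single libraries. Between warm bat aWAT and sWAT, 0 became 2 with median-ratio scaling or quantile normalization, 3 with either replicate block, and 0 to 1 without single libraries, and between cold ones 10 became 5 to 10. The mouse depot difference in cold change went from 0 to between 0 and 3 and that of bat aWAT against sWAT to between 0 and 2 without single libraries. The iBAT species difference became 3 with only the groups compared and 0 to 1 without single libraries. The sWAT one became 0 with a pseudocount of 0.1, no filter, median-ratio scaling, quantile normalization or only the groups compared, and 0 to 1 without single libraries. Col28a1 between warm mouse depots had an unshifted change of -0.17 (0.40 beside the median of all genes) and was called higher with quantile normalization, at 0.52 beside the median. The causes were not tested. The labels give no animal identities. Female less male differences over all genes correlated at 0.26 to 0.55 between depots of the same species and temperature, in each of the 8 such pairs of groups, at -0.19 to 0.05 between different temperatures in the bat and at -0.017 to 0.47 in the mouse. In the mouse, the value between sWAT at 10 °C and sWAT at 30 °C (0.47) lay above both values between depots at the same temperature (0.37 and 0.41). Whether libraries of the same sex and temperature share an animal was not tested, with 2 libraries in a group, and the replicate blocks stand as alternatives.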
